A study of Mus musculus with 6 samples.

Results

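The miRNA cluster around miR-183 was examined among the short RNAs bound to Argonaute (Ago) proteins in the brains of wild-type (WT) and tau transgenic (Tau tg) mice. Its members are mmu-miR-183-5p, mmu-miR-96-5p and mmu-miR-182-5p, 3 of 782 miRNA names with reads in at least 1 of the 6 samples. They were chosen by the name in the miRNA column of the read table, with earlier results of these samples known, among them the group difference in reads with the seed UUGGCA that miR-182-5p and miR-96-5p carry. The difference in level between the groups is therefore given as a description. Of 119 rows of the table with these names, 78 sequences had reads in the 6 samples, 23 of miR-183-5p, 22 of miR-96-5p and 33 of miR-182-5p, out of 65087 sequences in all.

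Ago1-4 complexes were pulled down from brain tissue with a peptide derived from GW182, an Ago-binding protein, and the bound RNAs of small size were sequenced. All mice were 3-month-old males on a C57BL/6J background. The Tau tg mice (n = 3) carried a fragment of human tau under the neuronal Thy 1.2 promoter, and the WT mice (n = 3) were their controls. The labels give the tissue as hippocampus in the sample source and as cortex combined with hippocampus in the treatment field. The samples held 998248 to 6879551 reads, so that 3 reads, taken as the detection floor, equal 0.427 RPM (normalised read count per 1000000 reads) in the deepest sample (Tau tg 1) and 2.75 RPM in the shallowest (WT 3). The neuronal miRNAs of a 6-member list, which includes the brain-enriched miR-124-3p, summed to 156191 to 173024 RPM in every sample.

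A miRNA guides Ago to target mRNAs mainly through its seed, the bases from position 2 onward, and bases after the seed add to pairing in part. The miR-183 cluster is transcribed as a unit and is best known from sensory cells, such as photoreceptors, inner ear hair cells and olfactory neurons, where its loss disturbs sensory function. In most of the brain it is low. Which bases Ago-bound copies start and end with is set by Drosha, which cuts the base of the hairpin, by Dicer, which cuts near its loop, and by later trimming and addition of bases at the 3′ end.

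The reference mature sequences are shown first, because the results below turn on their seeds, their ends and position 24 of miR-182-5p. They are the RefSeq mouse sequences (GRCm38.p6), found for all 3 members and written 5′ to 3′ with the 7 seed bases (positions 2 to 8) in capitals.
mmu-miR-183-5p: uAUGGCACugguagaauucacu
mmu-miR-96-5p: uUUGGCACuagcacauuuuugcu
mmu-miR-182-5p: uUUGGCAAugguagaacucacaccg

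Counted from 1 at the 5′ end, miR-183-5p and miR-182-5p were identical at 18 of 22 positions and differed by A2U, C8A, U17C and U22A, written with the base of miR-183-5p first. The difference at position 2 gives them different 6mer seeds (positions 2 to 7), AUGGCA in miR-183-5p and UUGGCA in miR-182-5p. The seed UUGGCA is shared by miR-96-5p, which matched miR-182-5p at 12 of 23 positions and miR-183-5p at 13 of 22. At position 8, miR-96-5p has the base of miR-183-5p, so that by 7 bases the 3 seeds all differ. Thus 2 members share a 6mer seed with little likeness further along, and the pair most alike over its length does not.

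The hairpins lie on the minus strand of chromosome 6 within 3820 bp (GRCm38.p6). Mir183 is at chr6:30169668-30169737 and Mir96 follows 116 bp away at chr6:30169446-30169551. Mir182 is 3453 bp further on, at chr6:30165918-30165992. No other gene of the GENCODE M21 annotation overlaps any of the hairpins, so they are intergenic there. The nearest annotated genes, Nrf1 (12459 bp away, protein-coding) and Rncr4 (3155 bp away, a lincRNA), are both on the plus strand. In the hairpins below both mature arms are in capitals, the 5p arm first, and the bases after the 5p arm are those that reads with a longer 3′ end reach.
Mir183: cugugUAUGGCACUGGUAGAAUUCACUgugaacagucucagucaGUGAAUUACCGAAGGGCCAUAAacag
Mir96: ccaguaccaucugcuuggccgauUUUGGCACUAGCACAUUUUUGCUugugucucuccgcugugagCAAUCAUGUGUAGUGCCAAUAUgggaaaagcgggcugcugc
Mir182: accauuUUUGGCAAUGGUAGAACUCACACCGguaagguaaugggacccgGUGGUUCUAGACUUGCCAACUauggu

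The cluster was of middling level among Ago-bound miRNAs. Averaged over the 6 samples, miR-182-5p had 305 ± 286 RPM (SD, n = 6) and was in place 193 of 782 miRNAs ordered by mean. miR-96-5p had 173 ± 161 RPM and was in place 235, and miR-183-5p had 113 ± 94.2 RPM and was in place 267. Neighbours in this order have close means by construction, and the gaps between them were smaller than the SDs, so the places are approximate. For example, miR-182-5p stood between miR-340-5p at 307 ± 70.6 RPM and miR-3102-3p at 302 ± 120 RPM. By mean, the order within the cluster was miR-182-5p above miR-96-5p above miR-183-5p. The differences of these means were smaller than the SDs, which hold the spread between samples. Compared within samples and with all reads counted, miR-182-5p was above the other members in each of the 6 samples. In Tau tg 3 this rested on reads that differ from the hairpin at position 24, described below. Without them it had 9.82 RPM there, below miR-183-5p (45.4 RPM) and miR-96-5p (31.5 RPM). With all reads, the lead of miR-182-5p over miR-183-5p in Tau tg 3 (49.5 against 45.4 RPM) lay within counting error. The full order held in WT 1, WT 2, WT 3 and Tau tg 1, while miR-183-5p was above miR-96-5p in Tau tg 2 and Tau tg 3.

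miR-182-5p, the most abundant member, had 192 RPM in WT 1, 621 RPM in WT 2 and 715 RPM in WT 3, against 107, 147 and 49.5 RPM in Tau tg 1, 2 and 3. WT 2 and WT 3 were high and the groups did not overlap, but WT 1 was much nearer to the Tau tg samples than to the other WT samples. WT averaged 509 ± 279 RPM and Tau tg 101.1 ± 49.1 RPM (SD, n = 3 each), 5.04-fold apart. These values rest on 121 to 917 reads a sample.

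miR-96-5p, which shares the 6mer seed of miR-182-5p, had 96.0, 413 and 341 RPM in WT 1, 2 and 3, against 86.4, 70.3 and 31.5 RPM in Tau tg 1, 2 and 3. The groups again did not overlap, and the gap between the lowest WT sample and the highest Tau tg sample lay within counting error, with 95% Wilson intervals of 83.8 to 110 RPM for WT 1 and 79.8 to 93.5 RPM for Tau tg 1. WT averaged 283 ± 166 RPM and Tau tg 62.7 ± 28.2 RPM, 4.52-fold apart. Such intervals cover counting error only.

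miR-183-5p had 38.4, 215 and 249 RPM in WT 1, 2 and 3, against 45.0, 83.6 and 45.4 RPM in Tau tg 1, 2 and 3. Here the groups overlapped, since WT 1 was the lowest of all 6 samples. WT averaged 167 ± 113 RPM and Tau tg 58.0 ± 22.2 RPM, 2.88-fold apart.

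**Figure D1:**
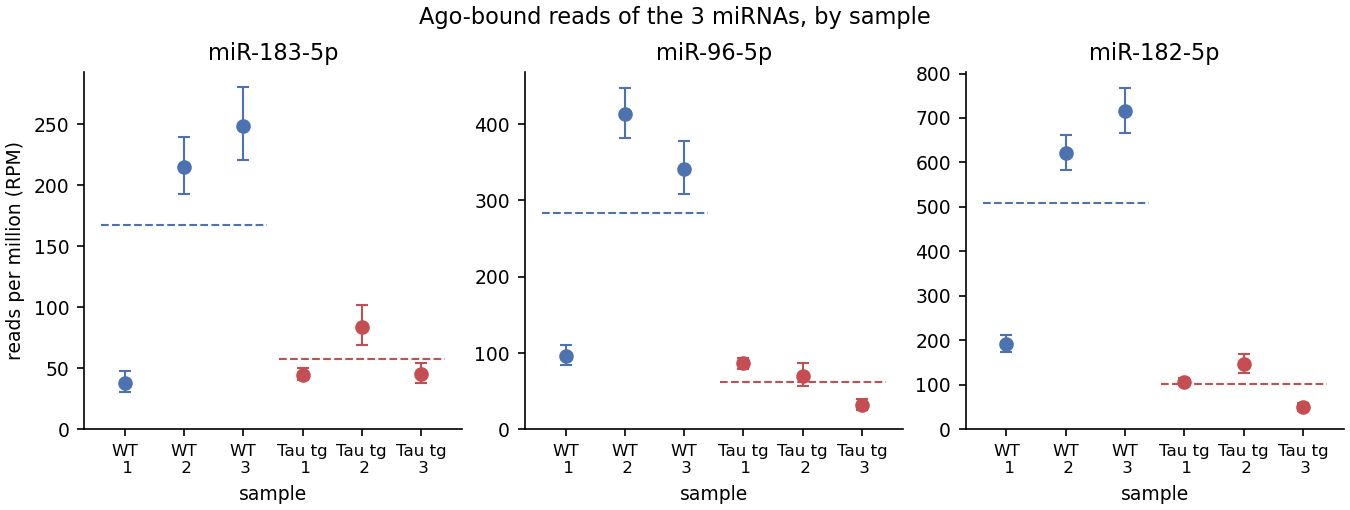
Level of each miRNA of the cluster in RPM (y axis, from 0, a different scale in each panel) in each of the 6 samples (x axis), WT in blue and Tau tg in red. Points are samples with 95% Wilson intervals for counting error and dashed lines are group means. WT 2 and WT 3 stand above the rest in all 3 panels, and WT 1 lies near the Tau tg samples, below all of them for miR-183-5p.

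In limma, fitted on log2(RPM + 1) over all 689 miRNAs with a mean of at least 1 RPM, the difference Tau tg minus WT was -2.25 ± 0.56 (log2, SE) for miR-182-5p (unadjusted p = 0.00099, adjusted p = 0.227). In the same limma fit it was -2.03 ± 0.62 for miR-96-5p (unadjusted p = 0.00487, adjusted p = 0.838). For miR-183-5p, limma gave -1.19 ± 0.70 (unadjusted p = 0.11, adjusted p = 0.896). The median miRNA had a log2 difference of 0.25, and relative to it the members were at -2.49, -2.27 and -1.43. None of the 3 passed an adjusted p of 0.05, and 0% of the 689 miRNAs did so in the lower direction. At an unadjusted p under 0.05, 2 of the 3 members were lower in Tau tg, against 1.6% of all miRNAs tested (11 of 689). Over the 472 miRNAs with reads in all 6 samples, 2.12% had every Tau tg sample below every WT sample, as 2 of the 3 members did. Since the members were chosen with this contrast known, nothing is read from these counts.

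On whole reads recovered from the RPM values, edgeR passed 0 of 689 miRNAs at an adjusted p of 0.05, with 28 at an unadjusted p under 0.05, and limma had 25 at that level. DESeq2 passed 5 of the 675 to which it gave an adjusted p, all lower in Tau tg (0.741%), and miR-182-5p (adjusted p = 0.00413) and miR-96-5p (adjusted p = 0.0261) were among them. The remaining 3, named after their values were seen, were miR-429-3p, miR-200b-3p and miR-6953-3p. The call thus depends on the tool, while the direction was the same in all. For miR-183-5p, edgeR gave a log2 difference of -1.71 (unadjusted p = 0.027, adjusted p = 0.902). DESeq2 gave -1.74 (unadjusted p = 0.0152, adjusted p = 0.437), so its unadjusted p also depends on the tool. The log2 difference of miR-183-5p in limma depended on single WT samples: it was -2.04 without WT 1 and -0.71 without WT 3. The labels do not say more of how the 3 samples of a group were obtained than that they are separate, and these p-values measure the spread between these samples. In tissue, fewer cells that make a miRNA and less of it per cell cannot be told apart.

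With all reads counted, the mix of the 3 members varied less from sample to sample than their sum did. Their sum was 326 RPM in WT 1, 1249 in WT 2 and 1304 in WT 3, and 238, 301 and 126 RPM in Tau tg 1, 2 and 3. miR-182-5p made 39.2% to 58.8% of that sum in every sample, and miR-96-5p 23.3% to 36.3%. In Tau tg 3, 80.2% of the miR-182-5p counted here differed from the hairpin at position 24, described below, and 9.82 RPM did not. The mix without such reads was not computed. The share of miR-183-5p ran from 11.8% in WT 1 to 35.9% in Tau tg 3, with means of 16.0 ± 3.79% in WT and 27.5 ± 8.52% in Tau tg, and the groups overlapped, since Tau tg 1 (18.9%) was below WT 3 (19.1%).

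The 3p arms of the hairpins, the passenger strands in most tissues, were low. miR-96-3p had no read in any sample, which at 3 reads allows up to 0.427 RPM in Tau tg 1 and 2.75 RPM in WT 3. miR-183-3p had 0 to 9 reads a sample, at most 5.51 RPM in WT 3. miR-182-3p was highest in WT 3, at 20.2 RPM, and had 8.11 and 8.59 RPM in Tau tg 1 and 3, but was at 1.40 RPM in WT 1, at 2.03 RPM in WT 2 and at 0 in Tau tg 2. WT 3 was the highest sample for both arms of this hairpin, but WT 2 had 621 RPM of miR-182-5p and 3 reads of miR-182-3p.

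The reads of each member had their own pattern of ends. For miR-96-5p, the 23 nt reference read (positions 1 to 23) held 60.9% of its summed RPM, and the reads that end 1 and 2 bases earlier held 23.5% and 6.44%. For miR-183-5p, the 22 nt reference read held 39.9%. miR-182-5p was spread most widely. The RefSeq mature form runs to position 25, but the reads from 1 to 25 held 9.91% of its summed RPM, and the read from 1 to 22 led with 21.4%, followed by those from 1 to 20 (15.8%), 1 to 21 (15.3%) and 1 to 23 (10.4%). The leading reads are shown with their 6mer seeds in capitals.
miR-96-5p, 1 to 23: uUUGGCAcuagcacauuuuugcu
miR-96-5p, 1 to 22: uUUGGCAcuagcacauuuuugc
miR-183-5p, 1 to 22: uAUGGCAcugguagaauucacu
miR-183-5p, 2 to 23: aUGGCACugguagaauucacug
miR-183-5p, 2 to 22: aUGGCACugguagaauucacu
miR-182-5p, 1 to 22: uUUGGCAaugguagaacucaca
miR-182-5p, 1 to 20: uUUGGCAaugguagaacuca
miR-182-5p, 1 to 25: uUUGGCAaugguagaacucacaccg

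**Figure D2:**
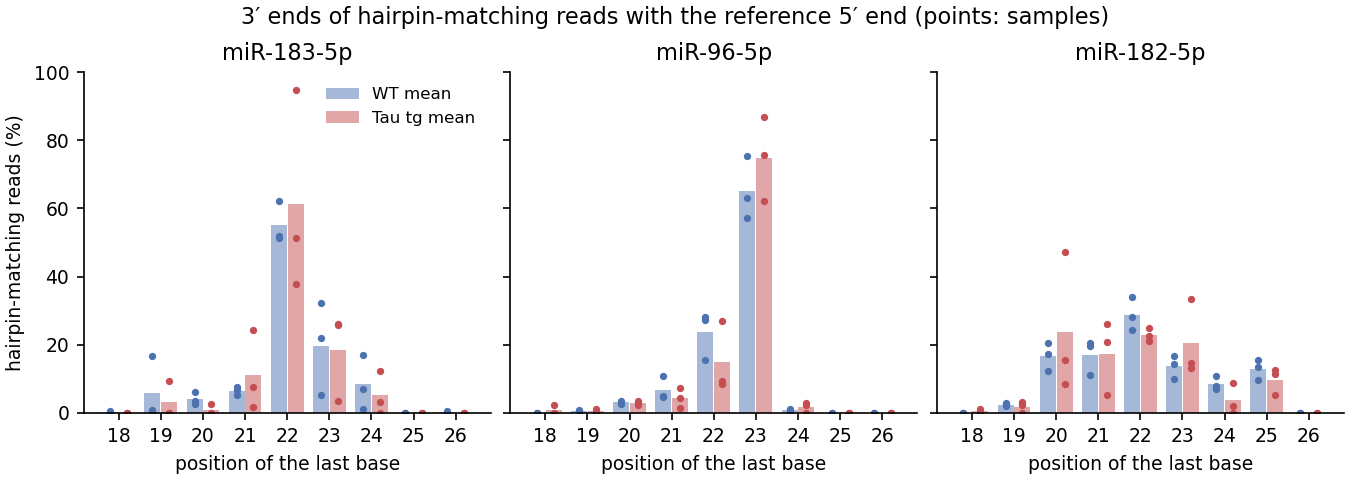
Position of the last base (x axis) of reads that start at the reference 5′ end and match the hairpin throughout, as a percentage of such reads of the same miRNA (y axis), for WT (blue) and Tau tg (red). Bars are means of 3 samples and points are samples. miR-96-5p peaks at position 23 and miR-183-5p at 22, while miR-182-5p is spread from 20 to 25.

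Read by read, the hairpin-matching forms of miR-182-5p had lower means in Tau tg, some with overlap of the groups and some without. The read from 1 to 22 led by summed RPM but in no Tau tg sample. It had 41.7, 133 and 179 RPM in WT 1, 2 and 3, against 18.9, 16.7 and 2.46 RPM in Tau tg 1, 2 and 3. The groups did not overlap, and the log2 difference was -3.24 ± 0.79 (limma over 36070 sequences, unadjusted p = 4.42e-05, adjusted p = 0.0862). The reads next in abundance overlapped: the read from 1 to 20 had 15.0, 113 and 110 RPM in WT 1, 2 and 3, against 12.9, 37.6 and 0.818 RPM in Tau tg 1, 2 and 3. The value in Tau tg 3 is below the 3-read floor of 1.23 RPM there. The read from 1 to 21 overlapped as well, since WT 1 had 13.6 RPM, below the 21.6 RPM of Tau tg 1. The full-length read, 1 to 25, had 16.4, 52.2 and 98.2 RPM among the WT samples and 9.39, 4.18 and 1.23 RPM in Tau tg, again with no overlap, and a log2 difference of -3.19 ± 0.92 (adjusted p = 0.352). Its value in Tau tg 3 is at the floor.

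The main read of miR-96-5p, 1 to 23, had 70.3, 247 and 184 RPM in WT 1, 2 and 3, against 51.7, 51.9 and 27 RPM in Tau tg 1, 2 and 3. These did not overlap, at a log2 difference of -1.80 ± 0.68 (adjusted p = 0.584). That of miR-183-5p, 1 to 22, had 13.6, 68.4 and 120 RPM among the WT samples and 11.5, 44.3 and 11.5 RPM in Tau tg, with overlap.

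Of the 78 sequences, 35 had a mean of at least 1 RPM and were tested (11 of miR-183-5p, 8 of miR-96-5p and 16 of miR-182-5p). The log2 difference was below 0 for 10 of 11, 8 of 8 and 14 of 16 of them, with medians of -1.37, -1.62 and -1.78, against -0.16 over all 36070 sequences. None of the 35 passed an adjusted p of 0.05, where 0.0222% of all sequences were called lower in Tau tg (8 sequences). At an unadjusted p under 0.05, 0, 3 and 6 were lower, against 0.787% of all sequences. These are the same reads that make up the sums above and carry no separate evidence.

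A set of miR-182-5p reads departed from this pattern. Among reads long enough to reach position 24, some had the C of the mouse hairpin and others a U there (C24U, with the reference base first and positions counted from the 5′ end of the mature miRNA). Of 10 such sequences with U, 7 went on with the hairpin base at position 25. A read that ends at the U cannot be told from a read of 23 bases with a U added, but those that go on differ from the mouse hairpin inside the read.

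Reads with the reference C at position 24 had 32.3, 98.3 and 144 RPM in WT 1, 2 and 3, against 17.1, 13.4 and 1.23 RPM in Tau tg 1, 2 and 3, a difference in means of 8.67-fold with no overlap. The value in Tau tg 3 is 3 reads, the floor. Reads with U had 62.8, 49.5 and 48.6 RPM among the WT samples and 19.1, 59.4 and 39.7 RPM in Tau tg, means of 53.6 ± 7.94 and 39.4 ± 20.2 RPM, with overlap. The U reads lay within 39.7 to 62.8 RPM in WT 1, WT 2, WT 3, Tau tg 2 and Tau tg 3 and were lower in Tau tg 1, the most deeply sequenced sample, while the C reads ranged from 1.23 to 144 RPM. Reads that stop before position 24 went with the C reads, at 362 ± 232 RPM among the WT samples and 51.2 ± 36.9 RPM in Tau tg.

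As a share of the reads that reach position 24, U was found in 65.4% in WT 1 (134 of 205 reads, 95% Wilson interval 58.6% to 71.5%), 33.0% in WT 2 and 24.8% in WT 3. It was 52.8% in Tau tg 1, 81.6% in Tau tg 2 and 97.0% in Tau tg 3 (97 of 100 reads, 91.5% to 99.0%). Apart from Tau tg 1, the samples with less miR-182-5p had the larger shares. The remaining bases, A and G, were found in at most 4 reads of a sample.

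**Figure D3:**
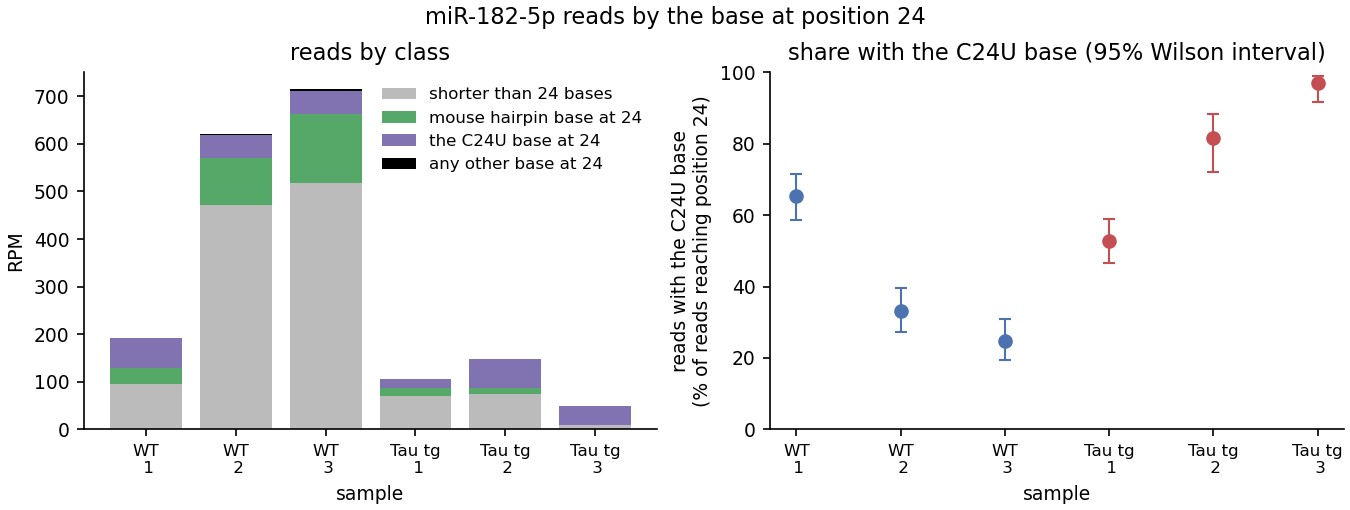
Left, miR-182-5p in RPM (y axis, from 0) in each sample (x axis), stacked by read class: shorter than 24 bases (grey), with the mouse hairpin base at position 24 (green), with the C24U base (purple) and with any other base (black). Right, reads with C24U as a percentage of the reads that reach position 24, with 95% Wilson intervals, WT in blue and Tau tg in red; the share runs from 24.8% in WT 3 to 97.0% in Tau tg 3.

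The single reads show the same. The 24 nt read with C24U had 27.2, 20.3 and 11.9 RPM in WT 1, 2 and 3, against 6.26, 26.8 and 12.7 RPM in Tau tg 1, 2 and 3 (log2 difference -0.50 ± 0.90). The 25 nt read with C24U had 20.1, 21.0 and 5.50 RPM among the WT samples and 6.55, 23.4 and 18 RPM in Tau tg (0.07 ± 0.92). Their counterparts with the reference base differed by -3.43 ± 1.0 (24 nt, limma, adjusted p = 0.383) and -3.19 ± 0.92 (25 nt) on the same scale. The 24 nt counterpart was below the 3-read floor in Tau tg 2 (1.67 RPM, floor 2.51 RPM) and had no read in Tau tg 3. The 25 nt counterpart was at the floor in Tau tg 3 (1.23 RPM). These differences are therefore imprecise.

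Without the reads that differ from the hairpin at position 24, miR-182-5p had 128, 570 and 662 RPM in WT 1, 2 and 3, against 87.7, 87.8 and 9.82 RPM in Tau tg 1, 2 and 3. Group means were then 454 ± 285 and 61.8 ± 45.0 RPM, 7.34-fold apart, where they were 5.04-fold apart with all reads, and the log2 difference was -3.06 ± 0.79 (limma, adjusted p = 0.327). Removing them took away 7.32% of miR-182-5p in WT 3 and 80.2% in Tau tg 3. This subset was defined after the reads had been seen. As background, human miR-182-5p is known to carry a U at this place. No human sequence was used here, and the origin of the C24U reads was not tested. Reads shorter than 24 bases cannot be assigned to either form.

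The members also differed in how fixed their seeds were. miR-96-5p and miR-182-5p began at the reference 5′ end in 98.5% and 98.5% of their summed RPM. miR-183-5p did so in 68.4%, and 30.7% of it began at position 2. A start at position 2 moves the 6mer seed from AUGGCA to UGGCAC. In the study's screen, each 6mer seed was placed in a neutral siRNA backbone and transfected into cell lines. The deposited score is a percent viability averaged over murine lines, is no share of cells and reaches 108.5. It was 69.0% for AUGGCA and 40.0% for UGGCAC. Of the 4088 seeds in the table, 60.3% had a lower viability than AUGGCA and 21.4% a lower one than UGGCAC. The seed UUGGCA of miR-96-5p and miR-182-5p had a viability of 52.5%, above 33.3% of seeds. Among 241 miRNAs compared at a mean of at least 100 RPM, 32 had a larger share of reads with another seed than the reference than the 31.6% of miR-183-5p, and the median was 4.15%. miR-96-5p and miR-182-5p, at 1.52% and 1.41%, were among the lower ones.

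Reads of miR-183-5p with the reference seed made up 69.5%, 62.5% and 80.8% in WT 1, 2 and 3, against 51.6%, 56.0% and 66.7% in Tau tg 1, 2 and 3. The groups overlapped, at means of 70.9 ± 9.26% and 58.1 ± 7.75%, and the difference did not pass an exact two-sided permutation test (p = 0.2, adjusted p = 0.6). The shares rest on 82 to 317 reads of miR-183-5p a sample. The read from 2 to 23 had 1.41, 34.6 and 5.50 RPM among the WT samples and 11.0, 22.6 and 3.68 RPM in Tau tg, a range that crosses between the groups.

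**Figure D4:**
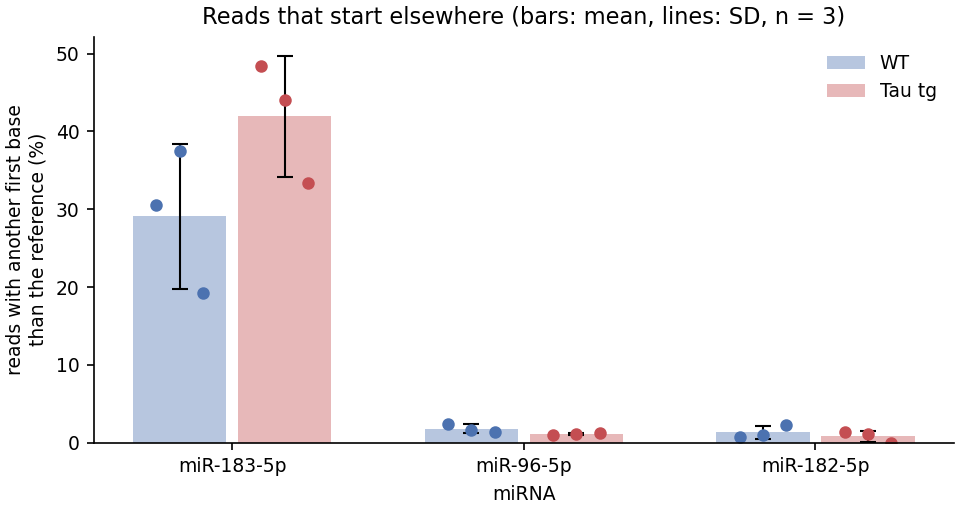
Reads that do not start at the first position of the reference mature sequence, as a percentage of all reads of the miRNA (y axis, from 0), for each member (x axis) in WT (blue) and Tau tg (red). Bars are means, lines SDs (n = 3 each) and points samples; miR-183-5p stands between 19.2% and 48.4%, and the other members are near 0.

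The distribution of a miRNA's reads over its forms was not used to choose the members, and 4 measures of it were compared for each member: the reference seed, the reference 3′ end, 3′ tails that the hairpin does not hold, and the mean read length. For miR-182-5p the tail share, the 3′ end share and the length are not separate from its level, since the C24U reads varied less in RPM than its other reads. For miR-96-5p and miR-182-5p, the reads with the reference seed are those with UUGGCA, whose group difference was known at the choice. Their seed shares are thus not fully separate from it. With 3 samples against 3 the exact permutation test over 20 assignments cannot go below p = 0.1. None of the 12 comparisons passed, and the smallest adjusted p was 0.6. The lowest p, 0.1, was that of the reference seed of miR-96-5p, at 98.2 ± 0.57% in WT and 98.8 ± 0.16% in Tau tg.

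The share of miR-182-5p reads with a 3′ tail outside the hairpin was 17.6%, 6.0% and 5.01% in WT 1, 2 and 3, against 8.67%, 23.9% and 25.6% in Tau tg 1, 2 and 3 (exact permutation p = 0.2, adjusted p = 0.6). Most of these tails were a U, which over all samples was the tail of 8.40% of its RPM, and the 24 nt reads with C24U are counted there. Without the reads that differ at position 24, the difference in tail share, Tau tg minus WT, went from 9.86 to 1.01 percentage points (p = 0.7, exact permutation). miR-183-5p carried tails on 0% to 12.9% of its reads, mostly A (5.47% of its RPM), and miR-96-5p on 0% to 4.03%. The mean read length of miR-182-5p was 22.5 ± 0.59 nt in WT and 23.3 ± 1.0 nt in Tau tg (p = 0.4 by the exact test), longest in Tau tg 3 at 24.4 nt. Without the reads that differ at position 24 the sign turned, to a difference of -0.14 nt (p = 0.7, exact permutation).

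Counted by seed and over all Ago-bound reads, the seed UUGGCA had 340, 1100 and 1035 RPM in WT 1, 2 and 3, against 208, 262 and 110 RPM in Tau tg 1, 2 and 3. This is the group difference known when the members were chosen. miR-182-5p held 59.1% of the RPM with this seed and miR-96-5p 33.5%, and 7.31% came from reads matched to no miRNA, which made up 0% to 26.5% in single samples. The seed AUGGCA of miR-183-5p had 44.5 to 218 RPM among the WT samples and 27.6 to 51.0 RPM in Tau tg, 89.2% of it from miR-183-5p. For UGGCAC, the shifted seed of miR-183-5p, miR-183-5p held 45.7%. Reads matched to no miRNA held 42.6% (12% to 70.6% in single samples), and reads named miR-29a-3p and miR-29b-3p, of another miRNA family, held 4.38% and 5.45%.

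The miRNAs whose pattern over the 6 samples was most like that of the cluster were 2 members of the miR-200 family, miR-200b-3p and miR-200a-3p. Likeness was the root mean square difference between log2(RPM + 1) profiles, each centred on its own mean, over 473 miRNAs with a mean of at least 10 RPM. The closest to the sum of the 3 members were miR-200b-3p (0.38), miR-200a-3p (0.51), miR-490-3p (0.73), miR-1981-5p (0.81) and miR-200c-3p (0.83). For scale, the members themselves were at 0.19 (miR-182-5p), 0.22 (miR-96-5p) and 0.51 (miR-183-5p), and 2 miRNAs that are no members were closer to the sum than miR-183-5p was. miR-200b-3p had 459, 823 and 1493 RPM in WT 1, 2 and 3, against 275, 275 and 178 RPM in Tau tg 1, 2 and 3, so that it too was highest in WT 2 and WT 3. All profiles come from the same 6 libraries.

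**Figure D5:**
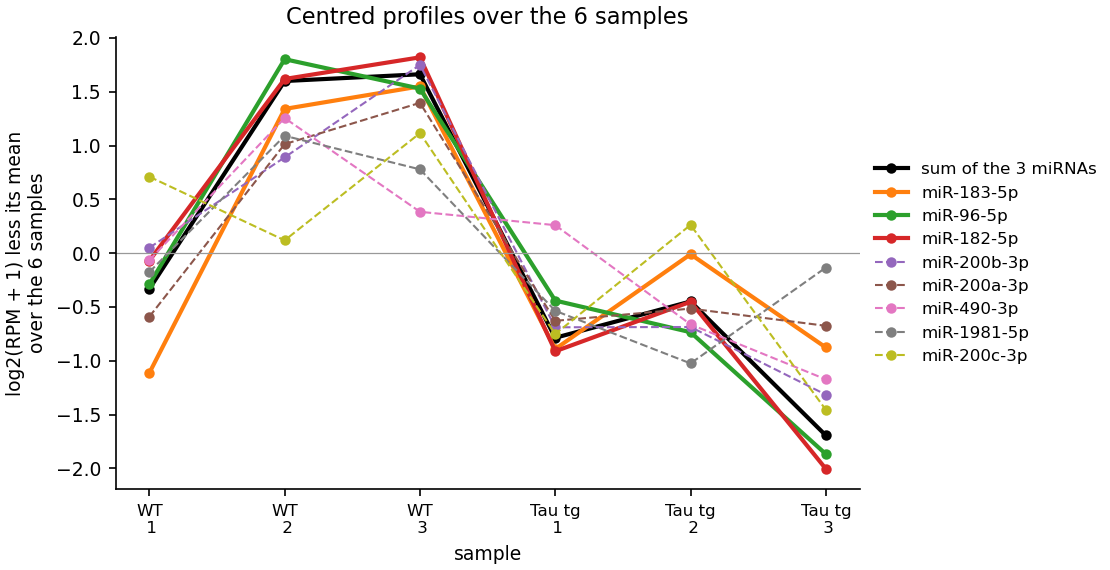
log2(RPM + 1) of each miRNA less its own mean over the 6 samples (y axis) in each sample (x axis), for the sum of the cluster (black), its 3 members (solid lines) and the 5 miRNAs most like the sum (dashed lines). WT 2 and WT 3 are above 0 for every line and Tau tg 3 is below 0 for every line.

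The miR-200 family, of 5 miRNAs at high level in epithelial, olfactory and pituitary tissue, was lower in Tau tg by its sum, as the cluster was. Its sum was 3105 to 9831 RPM among the WT samples and 2274 to 2483 RPM in Tau tg. All 5 had log2 differences below 0 (median -1.30), as had 251 of the 689 miRNAs tested. The groups overlapped for miR-200a-3p, miR-200c-3p and miR-141-3p, and did not for miR-200b-3p and miR-429-3p. The smallest difference was that of miR-141-3p, at -0.66 (limma, unadjusted p = 0.137). In limma, 4 of 5 were lower at an unadjusted p under 0.05, against 1.6% of all miRNAs tested, and none passed an adjusted p of 0.05. DESeq2 on recovered reads called 2 of them, miR-429-3p (adjusted p = 0.000871) and miR-200b-3p (adjusted p = 0.00413), against 0.741% of all miRNAs. The list was chosen with earlier results of these data known, so nothing is read from these counts. WT 1 was the lowest WT sample here too, at 3105 RPM. The part of such tissue in the cluster's difference was not tested.

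Of the other tissue and cell type lists, only the hindbrain list had log2 differences below 0 for all its members. None of these lists had a member lower at an unadjusted p under 0.05 in limma. Among the 6 neuronal miRNAs 1 was lower, miR-124-3p (log2 difference -0.36 ± 0.34). miR-9-5p was higher in Tau tg with no overlap of the groups (0.53 ± 0.32, limma, unadjusted p = 0.114). miR-7a-5p, miR-7b-5p and miR-375-3p, high in pituitary and other neuroendocrine tissue, summed to 305 to 646 RPM among the WT samples and 354 to 648 RPM in Tau tg. Of these, miR-375-3p was higher in Tau tg with no overlap of the groups (log2 difference 0.54 ± 0.60, limma, unadjusted p = 0.379), while miR-7a-5p and miR-7b-5p overlapped. The 6 choroid plexus miRNAs summed to 1884 to 5722 RPM among the WT samples and 2307 to 9480 RPM in Tau tg, and 1 of them, miR-1298-5p, had an unadjusted p under 0.05, in the higher direction. The 4 hindbrain miRNAs (the miR-10 and miR-196 pairs) summed to 400 to 599 RPM among the WT samples and 204 to 491 RPM in Tau tg, with log2 differences below 0 for all 4 and none at an unadjusted p under 0.05. Sums for oligodendrocytes (8893 to 13896 RPM in WT, 11208 to 14701 in Tau tg), microglia and leukocytes (2092 to 2502 and 2187 to 2921) and vessels with red blood cells (5380 to 10655 and 7006 to 11869) overlapped between the groups, and none of their members had an unadjusted p under 0.05. All listed miRNAs were detected, apart from miR-96-3p among the passenger arms.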

How the data were processed

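Per the study's methods, the authors trimmed and compiled the reads of all samples with their SPOROS pipeline (Trim Galore is named in the submitters' notes), removed rare reads and reads that matched artificial sequences, and matched the rest to mouse small RNAs by BLAST. The deposited table gives RPM per unique sequence, scaled by the authors to 1000000 reads a sample, with the miRNA name, the 6mer seed and the authors' seed viability score in percent. A deposited total column is also a score of the authors, with the samples behind it not stated. Aligner versions are not given in the sources used here.

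RPM values were whole multiples of the value of 1 read (100% within a tolerance of 0.05 reads), so reads were recovered. RPM were summed by miRNA name. limma 3.58.1 with a mean-variance trend was run on log2(RPM + 1) over all miRNAs, or all sequences, whose mean reached 1 RPM, with Benjamini-Hochberg adjustment. Differences on this scale understate the change of low miRNAs. edgeR 4.0.16 and DESeq2 1.42.0 were run on the recovered reads as alternatives. Scripts were tested on simulated data. Shares within a miRNA were compared by exact two-sided permutation tests (SciPy 1.17.1), adjusted over 12. Reads were aligned to the RefSeq hairpin without gaps, with 3′ tails of up to 3 nt. Intervals are 95% Wilson intervals. PCR reads without molecular identifiers are not independent molecules, so intervals and floors cover counting error only.

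The members and the marker lists were chosen with earlier results of these data known. Named were the 3 members, their 3p arms, reads with at least 5% of a member's RPM, seeds with at least 1% of a member's reads and their other holders, and the 5 miRNAs most like the members' sum. The alternatives were 2 other pseudocounts, no filter or a filter of 10 RPM, 2 other scalings, limma without the trend, the count tests, the replicate number as a block and each sample left out, and for shares, reads of 19 to 25 nt or of at least 1 RPM. Leaving out reads that differ at position 24 and keeping reads with the reference 5′ end were added after the data had been seen.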

Additional observations from a re-analysis of the deposited data

Results flagged for a closer look

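The deposited table has a total column whose samples are not stated. It was used in no comparison above, and the groups of 3 samples were too small to look for outlying samples. For miRNAs with a mean of at least 100 RPM, a median of 96.0% of that total lay in the 6 samples. For mmu-miR-183-5p it was 48.7%, for mmu-miR-96-5p 53.6% and for mmu-miR-182-5p 49.9%, and 21, 28 and 22 of the 276 miRNAs compared had a smaller share. The total thus holds reads of the cluster beyond those of the WT and Tau tg samples.

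The miR-182-5p reads with C24U stood apart within the miRNA. Of their total, 19.7% lay in the 6 samples, which left 1134 RPM beyond them. For reads with the reference C at position 24, 99.7% of the total lay in the 6 samples. Where the rest was measured, and the origin of the C24U reads in the 6 samples, was not tested.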

How the results depend on the processing

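The log2 difference of each of the 3 miRNAs kept its sign in every alternative run. DESeq2 moved 2 of the 3 past an adjusted p of 0.05, at -2.39 (miR-96-5p) and -2.54 (miR-182-5p), a count of 2 where limma and the remaining alternatives gave 0. The adjusted p of miR-182-5p ran from 0.00413 (DESeq2) to 0.924 (without Tau tg replicate 3). With single samples left out, the log2 difference ran from -2.04 to -0.71 for miR-183-5p, from -2.68 to -1.60 for miR-96-5p and from -2.84 to -1.81 for miR-182-5p. With the replicate number as a block, the values were -1.19, -2.03 and -2.25 with an adjusted p of 0.879 for each. Samples with the same number did not deviate together over the miRNAs (correlations of -0.002, -0.07 and 0.04). With 3 samples a group this cannot exclude that same-numbered samples were handled together, which the labels do not state.

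Among single reads, the miR-182-5p read from 1 to 22 passed an adjusted p of 0.05 under median-of-ratios scaling (0.046), with the block (0.0186) and without WT replicate 1 (0.0323), and the read from 1 to 21 without WT replicate 1 (0.0361). The small difference of the 25 nt C24U read turned to -0.084 under median-of-ratios scaling and ran from -0.51 to 0.57 with single samples left out, and that of the miR-183-5p read from 2 to 23 ran from -0.47 to 1.47. Of the shares, the mean length of miR-182-5p turned to -0.14 nt without the reads that differ at position 24. With single samples left out, the difference ran from -0.18 to 0.089 nt for the mean length of miR-183-5p, from -15.5 to 0.55 percentage points for its reference 3′ end and from -0.076 to 0.71 for the reference seed of miR-182-5p. The causes were not tested. With 3 samples against 3 the exact test cannot go below p = 0.1, so no difference in shares could pass. The shares rest on 77 to 917 reads per miRNA and sample.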
